A study of Drosophila melanogaster with 4 samples.

Results

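The genes described here encode the subunits of the proteasome, the protease that degrades ubiquitin-tagged proteins in all eukaryotic cells. They were chosen by symbol from the deposited count table, as rows named Pros followed by alpha, beta or a digit, rows named Rpn or Rpt followed by a digit, and the older names Mov34 and Tbp-1. This gave 31 of 9931 genes. They are 6 alpha and 6 beta subunits of the core particle, 6 ATPases, 11 other subunits of the regulatory (19S) particle, and 2 paralogs of ATPases, Rpt3R and Rpt6R. No paralog of a core subunit was among the matched rows, so core paralogs, and the alpha1 subunit, were not analysed here.

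RNA-seq measured total RNA of salivary glands dissected from Drosophila melanogaster larvae in the third instar, kept at 25 °C. The 2 wild type libraries are described by genotype only. The 2 mutant libraries, titled Z2 and given the genotype JIL-1-/-, came from larvae null for JIL-1, which encodes a kinase of histone H3, and are called the mutant here. The labels name no control strain, no sex and no number of larvae, and do not say whether replicate libraries had separate sources, so p-values measure the spread between these libraries only.

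The proteasome has a barrel-shaped core of stacked rings. The outer alpha rings gate the entrance, and the inner beta rings carry the peptidase sites, of caspase-like (beta1), trypsin-like (beta2) and chymotrypsin-like (beta5) specificity. The regulatory particle caps the barrel: its ring of ATPases (Rpt) unfolds and feeds substrates, its base subunits Rpn1, Rpn2 and Rpn10 scaffold and bind ubiquitin, and its lid includes the deubiquitinating enzyme Rpn11. The late larval gland makes the glue proteins and is later broken down as the pupa forms.

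Library totals ran from 6222322 to 11369094 counts. JIL-1 itself stood at 93.4 and 76.9 CPM (counts scaled to a common library size with TMM factors) in wild type and at 55.4 and 55.7 in the mutant, lower in both mutant libraries. Its log2 fold change was -0.61 ± 0.12, with an adjusted p = 0.0147 that went to 0.0902 and 0.122 without the first and the second mutant library. Each log2 fold change is the mutant over wild type, ± is the standard error, intervals are 95%, and p-values come from edgeR's quasi-likelihood test, adjusted over all 7958 tested genes. All 11 listed gland markers were in the table, with summed levels of 344100 and 404300 CPM in wild type and 373000 and 350300 in the mutant. Of these markers 2 were called higher and 2 lower, so the sum hides changes in both directions. PH4alphaSG1 went from 5.79 and 6.83 CPM in wild type to 117 and 107 in the mutant. Sgs1 went from 24696 and 22164 CPM to 9746 and 9996. The 6 fat body markers, led by Fbp1, summed to 56870 and 67620 CPM in wild type and 38250 and 38240 in the mutant, with 3 called lower and 1 higher. The one called higher, Lsp1gamma, went from 7.35 and 7.58 to 3891 and 4771 CPM. Lower sums in the mutant were also read for 5 haemocyte markers, at 8.60 and 5.18 CPM against 0.988 and 1.18. The 6 muscle markers summed to 110 and 54.4 CPM in wild type and 53.7 and 43.1 in the mutant, with 1 called lower. Their sums in wild type library 2 and mutant library 1 were nearly equal. The 6 midgut markers summed to 5.79 and 232 CPM in wild type and 1.98 and 2.96 in the mutant. The part of these tissues in the results below was not tested. In whole glands, fewer cells of a type and less RNA per cell cannot be told apart.

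Proteasome subunit genes were close to level between the genotypes. Of the 31, 29 had enough counts to be tested, with 383 to 2963 counts per gene and library. Of the 29, 27 had a fitted change under 1.25-fold, against 43.4% of all tested genes. This limit was chosen after the values were seen, and Pros26 (0.805-fold) and Mov34 (1.22-fold) lay just inside it. Only 2 passed the test: Pros25, the alpha2 subunit, rose, and Prosbeta2, the trypsin-like beta subunit, fell. That is 6.90% of the tested subunits, where 30.7% of all tested genes were called (13.5% higher and 17.2% lower). Among the 1042 tested genes with a mean level in the same range as the subunits, 38.5% were called and 52.6% changed by less than 1.25-fold. At an unadjusted p under 0.05 the count was 4, with Mov34 and Pros26 added, against 43.8% of all tested genes. With upper quartile scaling 2 subunits were called higher, Pros25 and Mov34, and 0 lower.

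The median log2 fold change of the 29 was -0.03, beside 0.03 for all tested genes and -0.11 for the 1042 tested genes in the same range of mean level. The subunits' median thus lay below the first and above the second. Their size without sign had a median of 0.10, against 0.38 for all tested genes. Between the libraries of a genotype the same subunits differed by a median of 0.06 in wild type and 0.11 in the mutant on the log2 scale. The median difference between genotypes was thus close to that between mutant replicates and above that between wild type replicates. Single subunits went both ways. Pros54 had a log2 fold change of -0.06 beside replicate differences of 0.26 in wild type and 0.18 in the mutant. For Rpn9 these were -0.16 beside 0.004 and 0.05. The genotypes did not overlap for 12 of 29 subunits, 5 higher and 7 lower in the mutant, against 70.3% of all tested genes (37.2% higher and 33.1% lower). For the 27 that did not pass the test, the intervals reached at most from 0.662-fold to 1.45-fold.

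**Figure D1:**
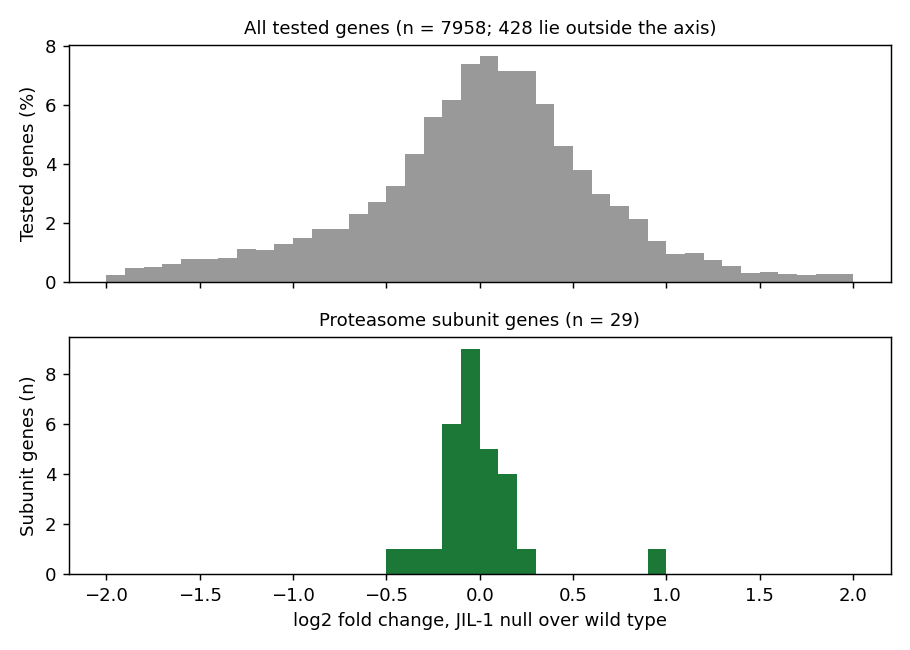
Histograms of the log2 fold change (mutant over wild type) in bins of 0.1, as a percentage of 7958 tested genes (top) and as a number of 29 tested proteasome subunit genes (bottom). Apart from Pros25 at 0.93, the subunits lie between -0.42 and 0.29, while the middle 90% of all tested genes runs from -1.58 to 1.23.

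In the alpha ring, Pros25 (FBgn0086134) was read at 59.9 and 58.3 CPM in wild type and at 109 and 117 CPM in the mutant. The mutant libraries were both well above either wild type library, far beyond the spread within a genotype. The fold was 1.91 (interval 1.62 to 2.26; log2 fold change 0.93 ± 0.10, adjusted p = 0.00176), and Pros25 passed the test under all 11 alternative settings, with log2 fold changes from 0.86 to 1.07. Its interval lay above those of all 28 other tested subunits. Among the 6 alpha genes it had the lowest CPM in both wild type libraries and the highest in both mutant libraries. CPM is not scaled by gene length, so this order is not one of transcript levels. In the authors' deposited RPKM, which is scaled by length, Prosalpha5 was below Pros25 in wild type, at 47.4 against 62.8.

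The other 5 alpha genes did not pass the test. Prosalpha7 was at 97.4 and 106 CPM in wild type and 99.9 and 103 in the mutant, with the mutant values inside the wild type range (log2 fold change -0.0039 ± 0.10). Pros29, the alpha3 subunit, whose tail in yeast is central to the gate, was at 92.9 and 95.8 CPM in wild type and 100.4 and 105 in the mutant (0.12 ± 0.10, adjusted p = 0.372). Its genotypes did not overlap, yet the gap was small. Prosalpha5 was at 84.8 and 86.6 CPM in wild type and 92.0 and 93.2 in the mutant (0.11 ± 0.09). Pros28.1, the alpha4 subunit, had a log2 fold change of 0.08 ± 0.10, and Pros35, the alpha6 subunit, one of 0.13 ± 0.14. Without Pros25 the median of the alpha ring was 0.11.

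**Figure D2:**
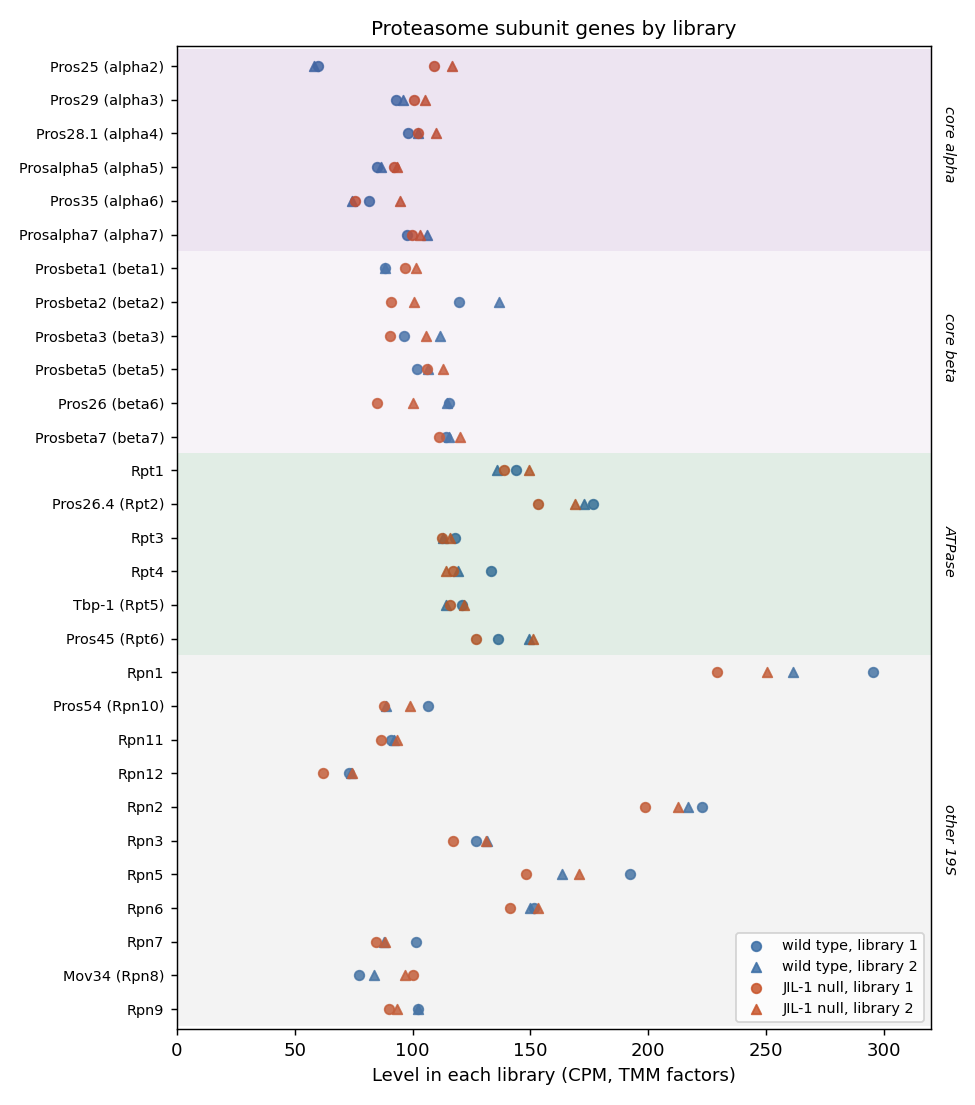
Level of each of 29 tested subunit genes in every library (CPM with TMM factors; circles are library 1 and triangles library 2 of a genotype; shading marks the class). Wild type and mutant points lie close together in most lines, and stand clearly apart for Pros25, where the mutant libraries at 109 and 117 CPM face 59.9 and 58.3 in wild type.

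In the beta ring, Prosbeta2 (FBgn0023174) was at 120 and 137 CPM in wild type and at 91.0 and 101 in the mutant. Both mutant libraries were below both wild type libraries. The fold was 0.747 (interval 0.614 to 0.910; log2 fold change -0.42 ± 0.12, adjusted p = 0.0398). This call was less stable than that of Pros25: it was lost with upper quartile scaling (-0.28, adjusted p = 0.0952), on leaving out wild type library 2 (-0.32, adjusted p = 0.0704), and on leaving out either mutant library (-0.35 and -0.52, adjusted p = 0.250 and 0.139), with adjusted p-values between 0.0106 and 0.250 across the 11 alternatives.

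Pros26, the beta6 subunit, a structural subunit without a peptidase site, moved in the same direction without passing the test. It was at 115.3 and 114.8 CPM in wild type and at 84.8 and 100.2 in the mutant (-0.31 ± 0.12, adjusted p = 0.0891). The other catalytic subunits did not pass the test. Prosbeta1 was at 88.4 CPM in both wild type libraries and at 96.7 and 101 in the mutant (0.16 ± 0.10, adjusted p = 0.234), and Prosbeta5 was at 102 and 106 CPM in wild type and 106 and 113 in the mutant (0.07 ± 0.10, adjusted p = 0.617). Whether their changes differ from that of Prosbeta2 was not tested. Prosbeta3 and Prosbeta7 had log2 fold changes of -0.08 ± 0.13 and 0.01 ± 0.10, with genotypes that overlapped. The median of the 6 beta genes was -0.04.

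Of the 6 ATPase genes 0 passed the edgeR test, 0 had an unadjusted p under 0.05, and 0 passed under each of the 11 alternatives, DESeq2 and limma-voom included. Pros26.4 (Rpt2), which in yeast opens the gate of the alpha ring, was at 177 and 173 CPM in wild type and 153 and 169 in the mutant (-0.12 ± 0.10). Pros45 (Rpt6) was at 136 and 149 CPM in wild type and 127 and 151 in the mutant, a spread within the mutant wider than the whole wild type range. Tbp-1 (Rpt5) was at 121 and 114 CPM in wild type and 116 and 122 in the mutant. The log2 fold changes of the class ran from -0.13 for Rpt4 to 0.05 for Rpt1, with a median of -0.03, the narrowest range of the 4 classes. The alpha genes without Pros25 had a narrower range still, from -0.0039 to 0.13.

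Of the 11 other subunits of the regulatory particle, 0 passed the edgeR test, 0 passed by DESeq2 or limma-voom, and 1, Mov34, had an unadjusted p under 0.05. Mov34 (Rpn8), the lid subunit that pairs with Rpn11, was at 77.4 and 83.7 CPM in wild type and at 100.3 and 96.8 in the mutant. Both mutant libraries were above both wild type libraries (log2 fold change 0.29 ± 0.10, fold 1.22, interval 1.03 to 1.45, adjusted p = 0.0733). It passed with upper quartile scaling (0.43, adjusted p = 0.0200) and without wild type library 2 (0.35, adjusted p = 0.0491), and its adjusted p lay between 0.0200 and 0.331 across the 11 alternatives.

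The other 10 all had fitted values below 0, though with upper quartile scaling only 3 of the 11 did. Rpn1, a base subunit that receives substrates, was at 295 and 261 CPM in wild type and 229 and 250.2 in the mutant, without overlap (-0.22 ± 0.12, adjusted p = 0.205). Rpn5, a lid scaffold, was at 192 and 163 CPM in wild type and 148 and 171 in the mutant, with overlap (-0.16 ± 0.13). The deubiquitinating lid subunit Rpn11 was at 90.9 and 92.0 CPM in wild type and 86.6 and 93.5 in the mutant (-0.02 ± 0.10), and the ubiquitin receptor gene Pros54 (Rpn10) had a log2 fold change of -0.06 ± 0.13. Rpn2, Rpn3, Rpn6, Rpn7, Rpn9 and Rpn12 lay between -0.16 and -0.03. The medians were -0.08 for the 8 lid genes and -0.09 for the 3 base genes.

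**Figure D3:**
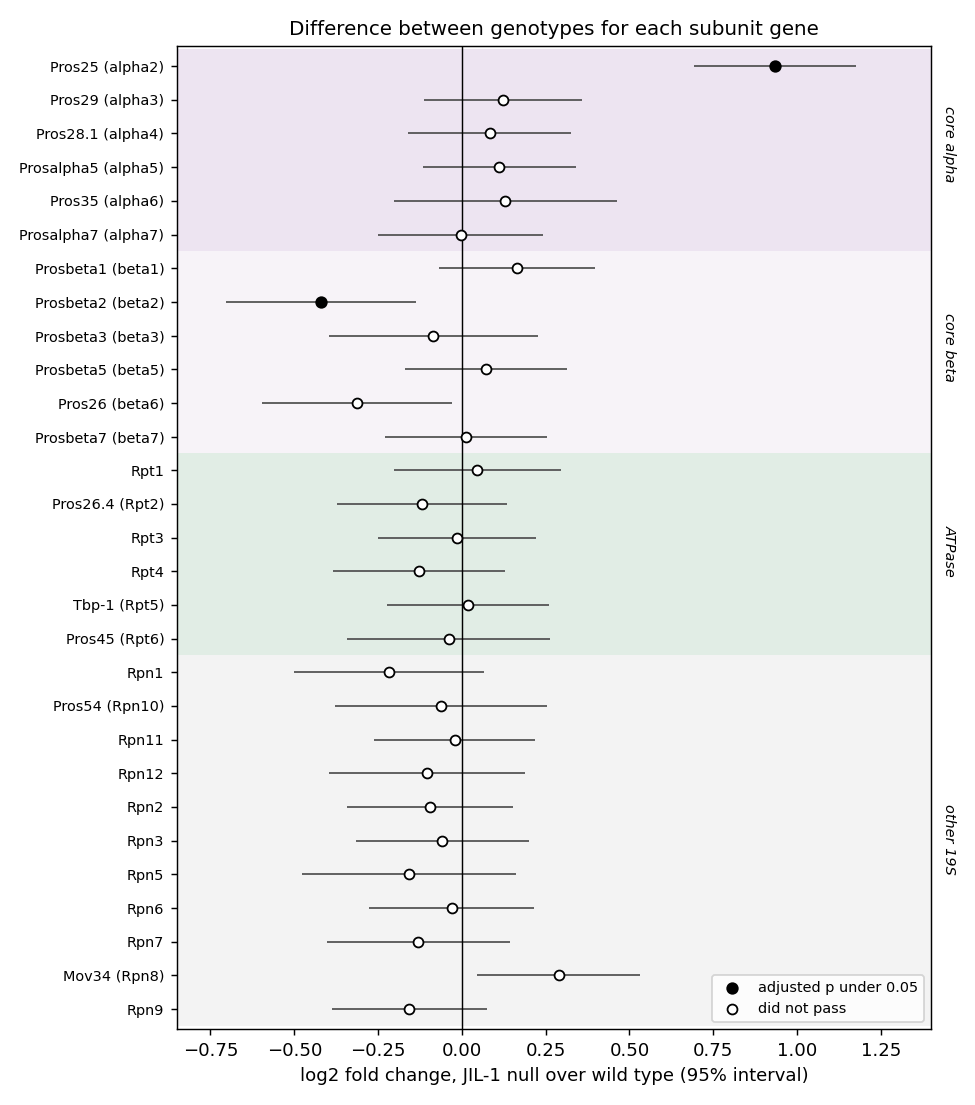
Fitted log2 fold change (mutant over wild type) of each tested subunit gene with its 95% interval, filled where the adjusted p was under 0.05. Pros25 at 0.93 and Prosbeta2 at -0.42 are the filled points, and 25 of the 29 intervals include 0.

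Set side by side, the fitted values were above 0 for 8 of 12 core genes and for 3 of 17 regulatory particle genes, with medians of 0.08 and -0.06, beside 52.6% above 0 among all tested genes. Both class medians lay above the -0.11 of the tested genes of like mean level. These signs depend on the scaling. Upper quartile scaling shifted the median over all tested genes to 0.17, and the values were then above 0 for 10 of 12 and 14 of 17, with medians of 0.21 and 0.07. The difference between classes was not tested, since genes of a class share libraries.

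Ratios within a library do not depend on scaling. The summed level of the core genes over that of the regulatory particle genes was 0.486 and 0.531 in wild type and 0.550 and 0.553 in the mutant. Both mutant values were higher, but the nearest values of the genotypes were closer to each other than the wild type libraries were. Without Pros25 the ratio was 0.460 and 0.505 in wild type and 0.498 and 0.502 in the mutant, so the mutant values then lay inside the wild type range. The 29 genes together took 0.362% and 0.321% of all counts in wild type and 0.328% and 0.370% in the mutant, without separation of the genotypes.

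Shares within a class likewise need no scaling between libraries. Pros25 made up 11.6% and 11.1% of the summed level of the 6 alpha genes in wild type and 18.8% and 18.7% in the mutant. Prosbeta2 made up 18.8% and 20.3% of the 6 beta genes in wild type and 15.7% in each mutant library. Mov34 made up 8.45% and 9.46% of the 8 lid genes in wild type and 12.1% and 10.7% in the mutant. In each case the libraries of one genotype lay wholly on one side of the other, and with 2 against 2 libraries an exact permutation test could not go below p = 0.333. These genes were chosen with their levels known, and their CPM already separated the genotypes. The separation of their shares is therefore not separate evidence.

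**Figure D4:**
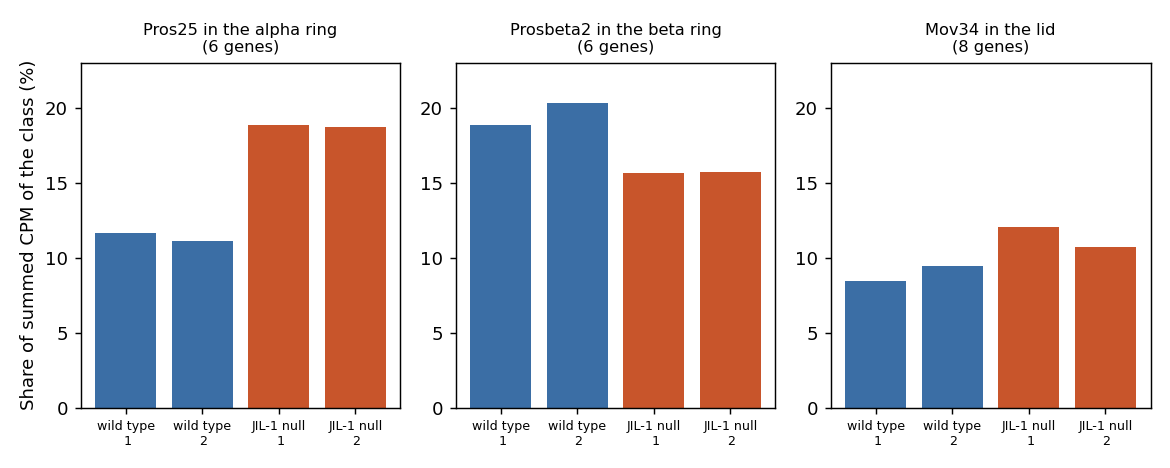
Share of Pros25, Prosbeta2 and Mov34 in the summed CPM of the measured genes of their class (6 alpha, 6 beta and 8 lid genes), 1 bar per library. Pros25 goes from 11.6% and 11.1% in wild type to 18.8% and 18.7% in the mutant, and the other panels show smaller shifts. The genes shown were chosen with their levels known.

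The counts do not stand alone for every subunit. By the reference annotation, exons of 12 of the 31 genes overlap exons of a gene on the opposite strand. No use of strand in counting is given, so reads of the shared stretches could come from either gene. Both subunits that passed the test are among them: Pros25 overlaps Aos1, which encodes a subunit of the SUMO-activating enzyme, and Prosbeta2 overlaps Reck. The 18 tested subunits without such an overlap had a median log2 fold change of -0.02.

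Aos1 rose beside Pros25. It had 91 and 105 counts in wild type and 249 and 322 in the mutant, or 14.2 and 13.3 CPM against 30.7 and 27.2, with both mutant libraries far above both wild type libraries (log2 fold change 1.07 ± 0.15, adjusted p = 0.00398). The ratio of Aos1 to Pros25 was 0.238 and 0.228 in wild type and 0.282 and 0.233 in the mutant. The next tested genes on either side, CG5641 and CG5844, had log2 fold changes of 0.46 ± 0.14 and 0.43 ± 0.14 and did not pass the test (adjusted p = 0.0543 and 0.0656). Farther out, Pp1-87B was at -0.03 ± 0.10 and desat1 at 0.15 ± 0.12. These neighbours were looked at after the value of Pros25 was known. Uba2, which encodes the partner of Aos1 in the SUMO-activating enzyme and lies elsewhere, had a log2 fold change of 0.31 ± 0.11 (adjusted p = 0.0827).

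**Figure D5:**
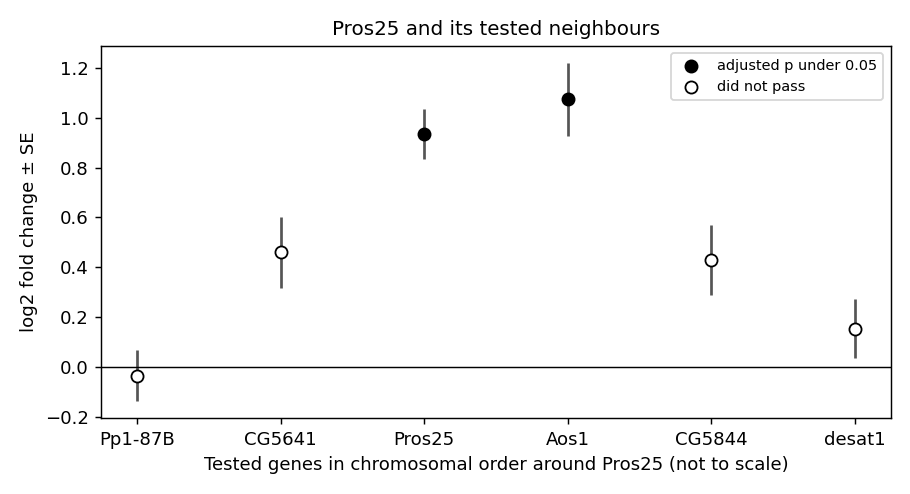
Log2 fold change (mutant over wild type, ± SE) of Pros25 and of the tested genes nearest to it, in their order on the chromosome and not to scale, filled where the adjusted p was under 0.05. Pros25 at 0.93 and its overlapping neighbour Aos1 at 1.07 are the highest, with lower values on either side.

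Beside Prosbeta2, Reck had 56 and 87 counts in wild type and 62 and 100 in the mutant (log2 fold change -0.30 ± 0.19, adjusted p = 0.271), few beside the 737 to 1193 counts of Prosbeta2. On its other side mRpL39, a mitochondrial ribosomal protein gene, fell (-1.09 ± 0.19, adjusted p = 0.00848). Of the tested genes farther out, CG5114 and CG43678 rose (0.62 ± 0.16 and 1.24 ± 0.24, adjusted p = 0.0347 and 0.0120). CG10006 and mnd, at -0.32 ± 0.22 and 0.04 ± 0.10, did not pass. Mov34 overlaps the span of slik, whose log2 fold change was -0.13 ± 0.12, and shares no exon with it. Prosbeta3 overlaps CG11980, which fell (-0.95 ± 0.17, adjusted p = 0.00931), while Prosbeta3 itself, at -0.08 ± 0.13, did not pass.

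Levels per length can be compared only through the authors' pooled RPKM, 1 value for each genotype with no error. In the authors' deposited table the wild type RPKM of the 29 tested subunits ran from 17.8 for Mov34 to 120.4 for Prosbeta2, with a median of 74.2. The class medians in that table were 78.6 for alpha, 106 for beta, 87.3 for ATPase and 66.6 for other regulatory subunits in wild type, and 99.0, 97.2, 88.9 and 63.4 in the mutant. Prosbeta2 and Pros26 led in wild type, at 120.4 and 119 in the authors' deposited table, and stood at 94.5 and 99.9 in the mutant. In that table Pros25 went from rank 21 of 31 in wild type, at 62.8, to rank 1 in the mutant, at 125.

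The gene lengths behind the RPKM values differ widely. The lengths implied by the deposited counts and RPKM ran from 0.845 kb for Prosbeta1 to 6.76 kb for Rpn2, and were over 2 kb for 8 of the 29 genes, among them Mov34 at 4.41 kb, Rpn6 at 5.12 kb and Prosbeta5 at 2.23 kb. The other 21 genes lay between 47.4 RPKM (Prosalpha5) and 120.4 RPKM (Prosbeta2) in wild type, in the authors' deposited table. How lengths were defined is not given in the sources used here, so the low RPKM of Mov34, Rpn2 and Rpn6, at 17.8, 31.6 and 28.6, cannot be read as low transcript levels. The genes over 2 kb were all beta genes or other regulatory genes. Differences between the class medians therefore cannot be read as differences in transcript level either.

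The authors' own comparison named 4 subunits at a false discovery rate under 0.05, against 43.7% of the tested genes in the authors' deposited table. They were Pros25 (fold 2.07), Mov34 (1.33), Prosbeta1 (1.21) and Prosbeta2 (0.810). In the authors' deposited table these folds are each higher than the edgeR folds of 1.91, 1.22, 1.12 and 0.747, and all 4 have the same direction in both. The offset is not particular to these 4. In the authors' deposited table the fold of every other tested subunit is also above its edgeR fold, for example 1.18 against 1.09 for Pros29 and 0.931 against 0.861 for Rpn1.

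The ATPase paralogs Rpt3R and Rpt6R had 0 to 9 counts per library, on both sides of the detection limit of 3 counts, and were not tested. Rpt3R had 4 and 1 counts in wild type and 9 and 9 in the mutant, a ratio of 2.58 with an exact counting interval from 0.924 to 8.90. Rpt6R had 2 and 6 counts in wild type and 0 and 1 in the mutant, a ratio of wild type over mutant of 11.2 with an exact counting interval from 1.5 to 495. A level of 3 counts, the limit used, is 0.264 to 0.482 CPM, and all 8 values lie between 0 and 1.11 CPM, where Rpt3 and Pros45 stood at 112 CPM or more in all 4 libraries. Exons of Rpt3R overlap exons of CG8412 (Alg12) on the opposite strand. If counting ignored strand, reads of the shared stretch could come from either gene. CG8412 had 646 counts over the wild type and 1189 over the mutant libraries. Of 16 listed testis markers 6 were in the table, with summed levels from 5.32 to 8.44 CPM in all 4 libraries.

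A further 2 subunits are in the table under numbers and were not chosen by the rule. CG17331, which the reference annotation names Prosbeta4, was at 82.3 and 88.2 CPM in wild type and 71.9 and 73.1 in the mutant, without overlap (-0.23 ± 0.10, adjusted p = 0.118). CG13349, named Rpn13, was at 94.9 and 125 CPM in wild type and 92.6 and 92.7 in the mutant (-0.25 ± 0.15, adjusted p = 0.243). With both added, 1 gene was higher and 1 lower and the median was -0.04.

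Subunit genes lie on all major arms, and 4 of them, Pros28.1, Rpt3, Rpt4 and Pros45, are X-linked. JIL-1 is enriched on the male X chromosome, which makes the X a natural split. The X-linked genes had log2 fold changes from -0.13 to 0.08 with a median of -0.03, and the 25 tested autosomal genes had the same median of -0.03.

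Genes that work with the proteasome were described by lists, and the differences between lists were not tested. Of 12 listed activators, assembly factors and shuttles, 2 rose and 3 fell, near the 13.5% called higher and 17.2% called lower among all tested genes. DESeq2 called 0 higher and 2 lower, and upper quartile scaling called 2 higher and 1 lower. With either mutant library left out 0 of these 12 passed. REG, the gene of the proteasome activator PA28 gamma, rose from 24.4 and 21.2 to 31.5 and 32.2 CPM (0.48 ± 0.12, adjusted p = 0.0320). Ubqn and rngo, genes of shuttle proteins that carry ubiquitinated substrates, fell: Ubqn went from 156 and 144 CPM in wild type to 108 and 113 in the mutant (-0.45 ± 0.10, adjusted p = 0.0229), and rngo had a log2 fold change of -0.41 ± 0.12 (adjusted p = 0.0478). CG12096 was the third that fell, at -0.82 ± 0.20, and the second that rose was ox, a respiratory chain gene that does not belong to the theme. Pomp, the maturation factor of the core, did not pass, at 64.6 and 61.2 CPM in wild type and 62.2 and 72.8 in the mutant (0.10 ± 0.12). The median of this list was -0.11, beside 0.03 for all tested genes.

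Of 8 genes that regulate proteasome genes or the breakdown of endoplasmic reticulum proteins, 1 rose and 1 fell, where 30.7% of all tested genes were called. Keap1, the gene of the adaptor that holds the stress factor CncC in check, fell from 15.5 and 18.5 CPM in wild type to 4.57 and 5.57 in the mutant, a clear gap between genotypes (-1.73 ± 0.19, adjusted p = 0.00201). The gene of CncC itself, cnc, which in flies can raise proteasome gene expression, did not pass, at 129 and 142 CPM in wild type and 109 and 112 in the mutant (-0.29 ± 0.10, adjusted p = 0.0770). Its partner gene maf-S had a log2 fold change of -0.10 ± 0.14. Pngl, which encodes an N-glycanase, rose (0.45 ± 0.11, adjusted p = 0.0237), but 0 genes of the list were called higher with either mutant library left out. By DESeq2 0 genes of the list were called higher and 1 lower. The median of this list was -0.03.

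Among 15 cullins and their partners, 4 fell and 1 rose, a share close to the 30.7% called among all tested genes. The ubiquitin ligase genes Cul-5, Cul-3 and slmb fell, each with a clear gap between the genotypes: Cul-5 from 92.6 and 87.9 to 39.3 and 42.4 CPM (-1.14 ± 0.10, adjusted p = 0.00095), Cul-3 from 245 and 278 to 135 and 129 CPM (-0.99 ± 0.11, adjusted p = 0.00224), and slmb, an F-box adaptor, from 282 and 245 to 118 and 133 CPM (-1.07 ± 0.13, adjusted p = 0.00241). The other gene that fell was lin19 (Cul1), at -0.49 ± 0.10, and pic, the gene of the Cul-4 partner DDB1, rose (0.78 ± 0.13). With either mutant library left out 3 genes of the list were called lower, and without mutant library 2, 0 were called higher. The median of this list was -0.02.

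Of 15 tested E2 ubiquitin-conjugating enzyme genes, 5 fell and 1 rose, beside 17.2% called lower and 13.5% called higher among all tested genes. CG7656 went from 147 and 164 CPM in wild type to 96.3 and 106 in the mutant (-0.62 ± 0.11, adjusted p = 0.00984), and vih and CG40045 had log2 fold changes of -0.56 ± 0.12 and -0.66 ± 0.14. CG5823 was the gene that rose, at 0.49 ± 0.09. By DESeq2 0 of these genes were called higher and 3 lower. The median was -0.15. With either mutant library left out 0 of these 15 passed.

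By edgeR 0 genes passed among 5 of ubiquitin and its activating enzyme (median -0.03), with 1 at an unadjusted p under 0.05, 1 by DESeq2 and 0 by limma-voom. The gene with the unadjusted p under 0.05 by edgeR was Ubi-p63E. It was at 414 and 558 CPM in wild type and 348 and 367 in the mutant (-0.45 ± 0.16, adjusted p = 0.0835). Ubi-p5E and Uba1 had log2 fold changes of -0.27 ± 0.20 and -0.03 ± 0.11. The most abundant were the ubiquitin fusion genes RpS27A, at 1166 and 1355 CPM in wild type and 1322 and 1302 in the mutant (0.06 ± 0.13), and RpL40, at 880.1 and 1121 CPM in wild type and 1263 and 1283 in the mutant (0.35 ± 0.15, adjusted p = 0.125). Among 8 genes of the COP9 signalosome, a relative of the lid, 0 passed by edgeR, 1 had an unadjusted p under 0.05, 0 passed by DESeq2 and 1 by limma-voom (median 0.05). The most abundant, alien and CSN1b, had log2 fold changes of -0.07 ± 0.11 and 0.11 ± 0.13. Among 6 genes of the unfoldase TER94 and its cofactors 0 passed by edgeR, DESeq2 or limma-voom and 0 had an unadjusted p under 0.05 (median 0.05). TER94 itself was at 502 and 464 CPM in wild type and 413 and 447 in the mutant, without overlap (-0.17 ± 0.11), and Plap had a log2 fold change of 0.17 ± 0.10.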

How the data were processed

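Raw counts per gene and library are as deposited by the authors, per the file headers. The authors also deposited, for each genotype pooled, an RPKM, and for the comparison a fold (ratio), a false discovery rate and the p-value behind it. The submitters' processing notes name the aligner GSNAP and the builds BDGP5 and dm3. Which counter, annotation or strand setting was used is not given here. Counts of 4 libraries were tested with edgeR 4.0.16 (R 4.3.3), quasi-likelihood, two-sided, TMM factors, prior count 0.125. filterByExpr kept 7958 genes (minimum count 10, minimum total 15). P-values were Benjamini-Hochberg adjusted, with calls at 0.05. Standard errors and intervals were derived from the F statistic. Alternatives used limma 3.58.1 and DESeq2 1.42.0. On simulated counts for 7958 genes, with 100 changed at each fold, 61% of 2-fold and 96% of 4-fold changes were recovered. In the same simulation 7 unchanged genes were called. Ratio intervals are Clopper-Pearson and cover counting error only. An annotation of another build (BDGP 6.54, Ensembl) gave symbols, arms, neighbours and overlaps, and no coordinates. All 31 members matched by identifier.

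Members and lists were chosen with earlier results of these data known. Values in every library were given for called members, for the 2 highest and the lowest of each class per length in wild type, and for paralogs. For lists, up to 3 called genes per direction were named by smallest adjusted p. Genes named otherwise, and the 1.25-fold limit, were chosen after values were seen.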

Additional observations from a re-analysis of the deposited data

How the results depend on the processing

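Pros25 stayed called higher and Aos1 stayed called higher under all 11 alternatives. With 2 libraries per genotype, 61% of simulated 2-fold changes were called, and smaller changes were not simulated. The simulation gave genes of all levels a common spread between libraries and changed 100 genes at each fold. In the data 30.7% of tested genes were called. The subunits had a median standard error of 0.10, against 0.17 for all tested genes, so the 61% does not describe them. The count of subunits called was 2 higher and 0 lower with upper quartile scaling, 0 and 0 without genes with an overlapping exon (chosen after seeing the data; both called genes are among those left out), and ranged from 1 to 2 higher and 0 to 1 lower with a library left out. Over all genes, upper quartile scaling called 1690 higher and DESeq2 called 587 higher, and with a library left out the calls ranged from 191 to 1238 higher and from 508 to 1646 lower. Upper quartile scaling gave median log2 fold changes of 0.104 for all subunits, 0.253 for alpha, 0.0991 for beta, 0.109 for ATPase and 0.0401 for other regulatory genes. With a library left out, these medians ranged from -0.114 to 0.0214, from 0.0351 to 0.145, from -0.147 to 0.0426, from -0.0975 to 0.0305 and from -0.18 to 0.0186. With the replicate block, 1 subunit was higher and 1 lower, 961 genes were higher and 1300 lower, and same-numbered libraries deviated with a correlation of -0.0543, so the numbers were not taken as pairs.

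Signs of uncalled subunits near 0 turned. With upper quartile scaling the log2 fold changes were 0.0169 for Pros26.4, 0.0704 for Pros54, 0.0966 for Pros45, 0.132 for Prosalpha7, 0.0516 for Prosbeta3, 0.00688 for Rpt4, 0.121 for Rpt3, 0.00451 for Rpn7, 0.104 for Rpn6, 0.0401 for Rpn2, 0.0314 for Rpn12, 0.114 for Rpn11 and 0.0774 for Rpn3. Without a filter they were 0.0245 for Prosalpha7, 0.0137 for Rpt3 and 0.00656 for Rpn11, and with only genes averaging 5 CPM or more 0.00504 for Prosalpha7. DESeq2 size factors in edgeR gave -0.00909 for Tbp-1 and -0.016 for Prosbeta7, and DESeq2 gave -0.00874 for Tbp-1 and -0.0157 for Prosbeta7. With a library left out they ran from -0.188 to 0.0651 for Pros54, from -0.194 to 0.0788 for Pros45, from -0.0719 to 0.0607 for Prosalpha7, from -0.226 to 0.0266 for Prosbeta3, from -0.0451 to 0.0554 for Tbp-1, from -0.0594 to 0.0093 for Rpt3, from -0.0336 to 0.0965 for Rpt1, from -0.114 to 0.0252 for Rpn6, from -0.269 to 0.0196 for Rpn12, from -0.104 to 0.0321 for Rpn11, from -0.0687 to 0.0639 for Prosbeta7, from -0.0671 to 0.278 for Pros35 and from -0.165 to 0.0186 for Rpn3. The cause of these turns was not tested.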
